A study of Mus musculus with 2 samples.

Results

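The genes described here are 10 immediate early genes of the AP-1 and EGR classes in mouse embryonic stem cells: Jun, Junb, Jund, Fos, Fosb, Fosl1, Fosl2, Egr1, Egr2 and Ier2. They were chosen by name, with earlier results of these arrays known, and are represented by all probe sets whose platform annotation gives only 1 of these symbols. This gave 15 probe sets for the 10 genes, of 34945 probe sets that name a single gene and 18193 genes named in all. Messenger RNA was measured on 2 Affymetrix 3' expression arrays. One array held E14 cells, an established mouse embryonic stem cell line, infected with a lentivirus for a short hairpin RNA (shRNA) against Mll2, a histone H3 methyltransferase, and the other held E14 cells infected with a lentivirus for a control shRNA. The treatment protocol gives 24 h of infection and 5 days of puromycin selection, so the cells were selected, bulk populations. With 1 array per group there are no replicates, so the groups could not be tested against each other and the differences are given as values with no p.

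AP-1 is a pair of basic leucine zipper (bZIP) proteins that binds DNA as a dimer. Jun proteins pair with each other or with Fos proteins, whereas Fos proteins need a Jun partner. Egr1 and Egr2 are zinc finger transcription factors that bind GC-rich sites. Immediate early genes are transcribed within minutes of a signal such as a growth factor or a stress, without new protein synthesis, and their mRNAs are short-lived. In embryonic stem cells the FGF and ERK kinase route is a known source of such signals, and Egr1 is among the genes it induces.

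The table holds log2 MAS5 signals. Probe sets differ in how strongly they hybridise, so signals were compared between the arrays and not between genes. Values under a floor, the 50th percentile of all values (a signal of 64.7), were raised to it, and a gene was represented by its brightest probe set. A ratio is the signal of the Mll2 shRNA array over that of the control array, and a log2 ratio of 1 is 2-fold. The spread at a level is a robust SD (the scaled median absolute deviation) of log2 ratios over the 500 genes closest in mean level. Only genes above the floor on both arrays were used for it, which limits the size of their ratios near the floor. It mixes noise with real differences and says nothing of variation between cultures. Genes past it are not rare, and their share among all measured genes was not computed.

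Jun, Fos, Egr1 and Junb had higher signals in Mll2 shRNA cells than in control cells, by more than the spread at their level. So did Egr2 in 1 of its 2 probe sets, but its control value there lay below the floor. The genes it was compared with lay above the floor on both arrays, which caps their ratios at that dim level. For Egr2 the comparison with the spread therefore says little. Passing the spread is a weak mark, since 90 of the 500 genes nearest to Junb had a ratio as high. For Jun, Fos and Egr1 that number was 1, 5 and 18. For Ier2, Jund, Fosl2 and Fosl1 the 2 arrays differed by less than the spread at their level. Fosb was the only gene with a lower value in the probe set used for it, also by less than that spread. Of the 10 genes, 1 was at least 2-fold higher, against 1.47% of the 11805 measured genes, and 0 were at least 2-fold lower, against 0.983%. At 1.5-fold, 4 of the 10 (Jun, Egr2, Fos and Egr1) were higher, against 7.4% of measured genes, and 0 were lower, against 4.68%. The median log2 ratio of the 10 was 0.32 and that of all measured genes 0.03, and 9 of the 10 ratios lay above 0, against 53.5%. The median of the 10 was 0.13 without the probe sets whose suffix marks possible cross-hybridisation or shared transcripts. With the floor at the 70th percentile, Fosb, Fosl1 and Egr2 lay below it, and the median of the remaining genes was 0.14. In bulk samples such as these, fewer cells that express a gene and less of its RNA per cell cannot be told apart.

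**Figure D1:**
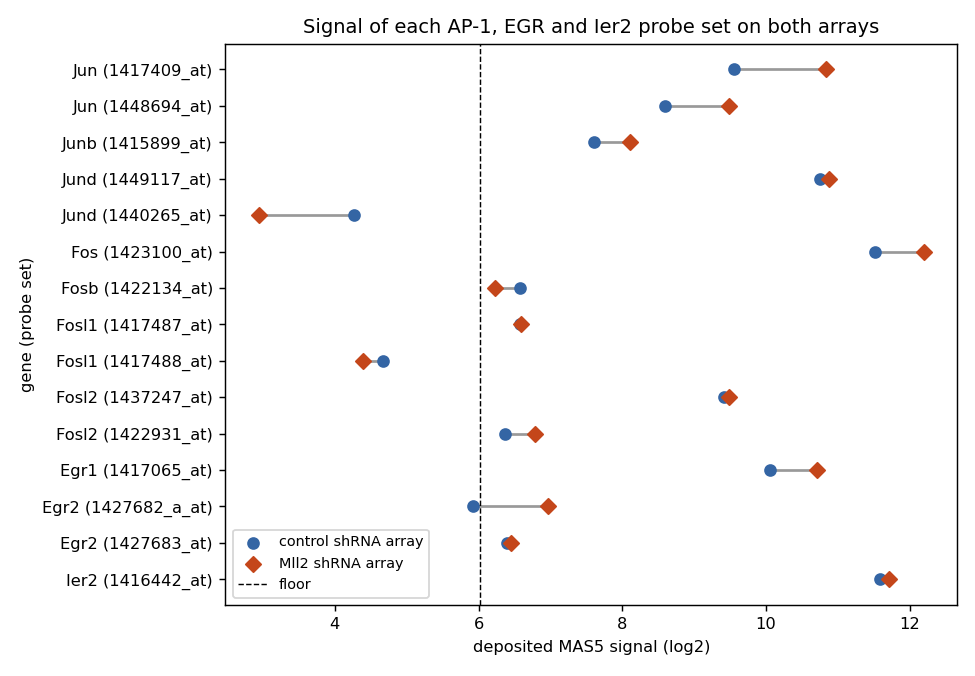
Signal of all 15 probe sets of the 10 genes, as deposited (log2 of the MAS5 signal, horizontal axis), in the control array (circles) and the Mll2 shRNA array (diamonds), 1 array per group with no error bars. The dashed line is the floor. Both Jun probe sets, Fos, Egr1 and Junb are higher in the Mll2 shRNA array, and 1 probe set each of Jund and Fosl1 lies below the floor on both arrays.

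Jun encodes c-Jun, the AP-1 subunit that also gave the Jun family its name. Probe set 1417409_at gave a signal of 1834 in Mll2 shRNA cells and 750.4 in control cells. Its second probe set, 1448694_at, gave 719.5 and 388.9. Both were thus higher in Mll2 shRNA cells, by 2.44-fold (log2 ratio 1.29, spread at that level 0.26) and 1.85-fold (0.89, spread 0.34). Of the 500 genes nearest in level to the first probe set, 1 had a log2 ratio as high, and 10 had one for the second. The mean over the probe sets was 1.09 ± 0.28 (SD over 2 probe sets of the same array pair, which is no measure of biological error). Their difference of 0.40 is close to the SD of 0.37 of that difference over the 4713 genes that have a pair of probe sets above the floor in both groups. Among the 3780 genes with a mean signal at least that of this Jun probe set, 5 had a higher ratio, as did 56 of all measured genes.

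Junb and Jund encode the other Jun proteins. Junb, which in many settings counters c-Jun, had a signal of 275.0 in Mll2 shRNA cells and 193.5 in control cells (1415899_at). It was 1.42-fold higher (log2 ratio 0.51), slightly more than the spread of 0.42 at its level, and 90 of the 500 nearest genes had a ratio as high. Jund, which many cells express without a stimulus, had signals of 1886 and 1718 (1449117_at). That is 1.10-fold, or a log2 ratio of 0.13 with a spread of 0.28. The other Jund probe set, 1440265_at, had signals of 7.67 and 19.1, under the floor in both groups, and gave no ratio. The Jun genes therefore did not share 1 ratio, running from 0.13 for Jund to 1.29 for Jun.

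Fos encodes c-Fos, the main partner of c-Jun after a stimulus. Its only probe set, 1423100_at, had a signal of 4695 in Mll2 shRNA cells and 2939 in control cells. It was 1.60-fold higher (log2 ratio 0.68, spread 0.23), and 5 of the 500 nearest genes had a ratio as high. The Fos signal was thus higher in Mll2 shRNA cells by 2.98 times the spread at its level on the log2 scale.

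The other Fos family genes had differences within the spread at their level. Fosb, a Fos protein known for its long-lived splice form in neurons, had signals of 74.9 in Mll2 shRNA cells and 95.2 in control cells (1422134_at). Its log2 ratio of -0.34 lay within the spread of 0.39, and both values were close to the floor. Fosl1 (Fra-1), which lacks a strong activation domain, had signals of 96.1 and 95.0 (1417487_at), a log2 ratio of 0.02 that became -0.02 after quantile normalization and -0.01 after loess. Its other probe set, 1417488_at, had signals of 20.9 in Mll2 shRNA cells and 25.5 in control cells, under the floor in both groups. Fosl2 (Fra-2) had signals of 714.7 and 679.0 in its brightest probe set, 1437247_at (log2 ratio 0.07, spread 0.31), and 111.0 and 82.7 in 1422931_at (0.42, spread 0.46). Neither passed the spread, and the mean of these probe sets was 0.25 ± 0.25 (SD over 2).

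**Figure D2:**
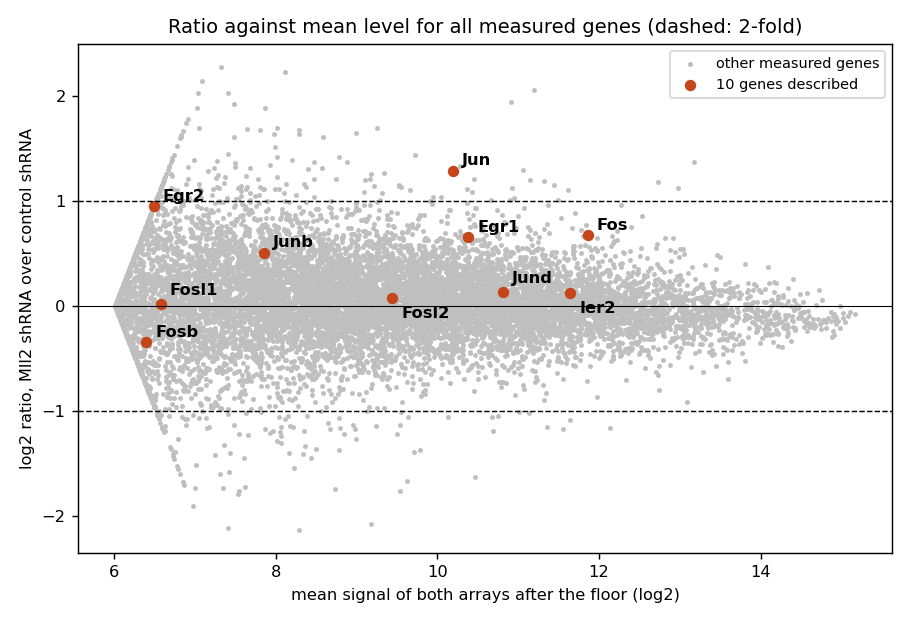
Log2 ratio (Mll2 shRNA over control shRNA) against the mean log2 signal of both arrays after the floor, for the 11805 measured genes, 1 point per gene. Grey points are other genes, red points the 10 genes, and dashed lines mark 2-fold. Jun lies above the 2-fold line and Fos and Egr1 near the upper edge of the genes at their level, while Ier2, Jund, Fosl2 and Fosl1 lie near 0. The slanted edges at the left come from the floor.

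Egr1 is the best known early gene of ERK signalling. Its probe set 1417065_at had a signal of 1675 in Mll2 shRNA cells and 1061 in control cells. It was 1.58-fold higher (log2 ratio 0.66, spread 0.26), with 18 of the 500 nearest genes at a ratio as high. Egr2 (Krox20), a factor of hindbrain patterning and of myelination, gave no single answer. Its probe set 1427682_a_at had signals of 125.3 and 60.4, the second below the floor, so Egr2 was at least 1.94-fold higher there. The other, 1427683_at, had 87.1 and 84.7, a log2 ratio of 0.04. The 2 Egr2 probe sets had nearly the same mean level, so which of them stood for the gene rested on a small margin. Ier2, a short early response protein without a DNA-binding domain of the AP-1 or EGR kind, had signals of 3343 and 3061 (1416442_at). Its log2 ratio of 0.13 was within the spread of 0.22.

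The promoters of Jun, Fos and Junb, higher genes that have a single annotated window each, are shown because early genes are known for signal-responsive elements close to their starts. RefSeq windows (GRCm38.p6) were found for 7 of the 10 genes, and the 250 bases before the annotated start were searched on both strands for 5 motifs. These were the AP-1 site TGANTCA, the related site TGACNTCA, the half-site TGACG of the cAMP response element (CRE), the CArG box bound by serum response factor, and the EGR site GCGNGGGCG. Motifs can overlap. Of the 32851 promoter windows in the table, several of which can belong to 1 gene, 6.75% hold the AP-1 site, 7.49% TGACNTCA, 17.8% TGACG, 1.47% the CArG box and 4.70% the EGR site. The windows are Jun at chr4:95052223-95052472 (minus strand), Fos at chr12:85473640-85473889 (plus strand) and Junb at chr8:84978749-84978998 (minus strand). They are written 5' to 3' in the direction of the gene, with motif matches in capitals.
Jun: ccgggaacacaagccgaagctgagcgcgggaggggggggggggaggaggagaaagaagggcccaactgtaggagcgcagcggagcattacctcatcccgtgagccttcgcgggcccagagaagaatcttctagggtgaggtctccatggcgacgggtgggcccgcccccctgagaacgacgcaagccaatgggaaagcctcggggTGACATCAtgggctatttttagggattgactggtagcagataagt
Fos: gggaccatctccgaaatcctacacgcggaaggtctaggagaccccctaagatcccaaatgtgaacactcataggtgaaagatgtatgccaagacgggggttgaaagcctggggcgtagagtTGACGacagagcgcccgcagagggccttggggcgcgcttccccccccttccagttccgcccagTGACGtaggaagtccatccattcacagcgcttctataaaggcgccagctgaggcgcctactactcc
Junb: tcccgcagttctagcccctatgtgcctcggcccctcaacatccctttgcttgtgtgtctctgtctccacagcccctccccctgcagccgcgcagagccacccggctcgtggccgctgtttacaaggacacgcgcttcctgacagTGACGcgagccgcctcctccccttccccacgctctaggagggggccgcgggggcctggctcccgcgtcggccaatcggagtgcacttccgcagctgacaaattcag
Jun held 1 TGACNTCA match, TGACATCA, from base -45 to base -38 before the start. Fos held 2 TGACG half-sites, beginning at -129 and -66, and Junb 1 at -106. None of these 3 windows held TGANTCA, a CArG box or the EGR site. Fosb and Fosl2 held an EGR site each, at -50 and -79, and Fosb a TGACG at -60. Jund held no match. Egr2 has 5 annotated windows, which overlap in part. A CArG box lay in 4 of them, and several of those also held TGACG on both strands. The matches are letters in these windows and were not set against any binding data, and for the Fos gene elements farther than 250 bases lie outside what was searched.

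**Figure D3:**
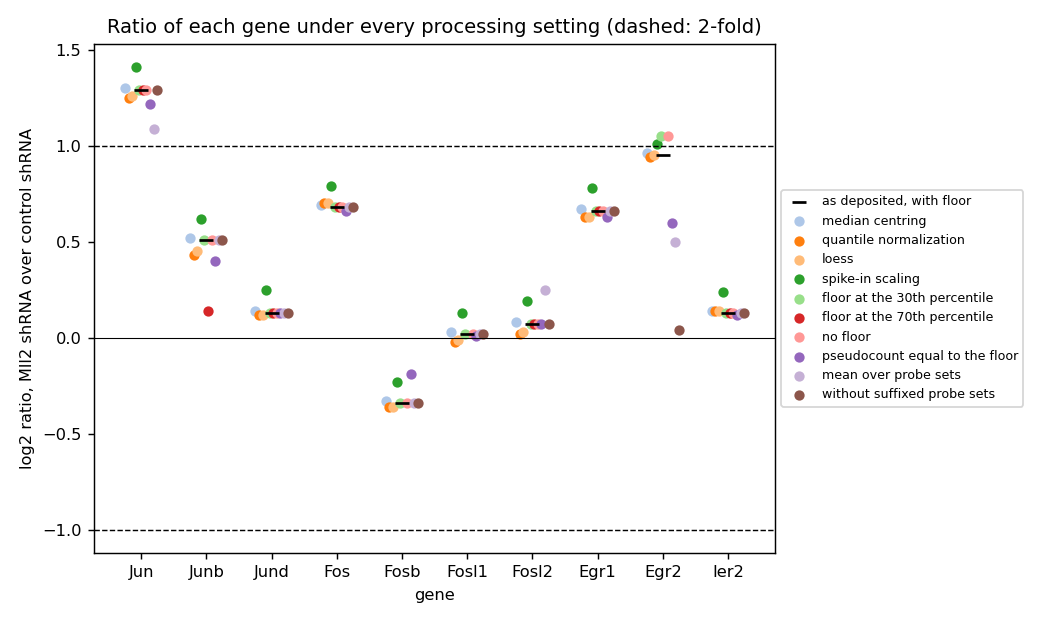
Log2 ratio (Mll2 shRNA over control shRNA) of each of the 10 genes as deposited with the floor (black bars) and under each alternative scaling, floor, pseudocount or choice of probe sets (coloured points). Dashed lines mark 2-fold. Jun stays between 1.09 and 1.41, Fos between 0.66 and 0.79 and Egr1 between 0.63 and 0.78, whereas Egr2 runs from 0.04 to 1.05.

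The ratios of Jun, Fos and Egr1 depended little on these choices, as the plot of ratios by processing setting shows. Part of this was fixed in advance. Fos and Egr1 have 1 bright probe set each, so moving the floor or changing the choice of probe sets could not alter their ratios. Jun was at least 2-fold higher under all 10 settings run for it, with log2 ratios from 1.09 to 1.41. Scaling on the 18 spike-in probe sets raised the ratios, moving the median of all measured genes from 0.03 to 0.14. This scaling shifts 1 array by a constant, so ratios relative to that median could hardly change. Those ratios were then 1.27 for Jun, against 1.26 as deposited, and 0.65, 0.64 and 0.49 for Fos, Egr1 and Junb. Junb was at 0.14 with the floor at the 70th percentile, which raised its control value. Egr2 was at 0.04 when the suffixed probe sets were left out.

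Early genes outside the 10 were described from a list of 38, all of them named by a probe set and 37 measured. Their median was 0.12, with 23 ratios above 0 and 14 below. At least 2-fold higher in the probe set used was 1 of them, Rhob, a stress-induced small GTPase gene, with signals of 837.3 in Mll2 shRNA cells and 363.9 in control cells (2.30-fold, log2 ratio 1.20, spread 0.34). Hes1, a transcriptional repressor best known from the Notch pathway, followed at 0.93 (1949 and 1021). The lowest were Plk3, a stress-response kinase, at -0.78 (198.1 and 339.3), and the growth regulator Myc at -0.59 (1106 and 1664). None was at least 2-fold lower. At 1.5-fold, 7 of the 37 were higher, against 7.4% of measured genes, and 2 were lower, against 4.68%. Beyond the spread at their level, 12 were higher and 6 lower, counts with no share of all measured genes to set beside them. Ccn1, which encodes a secreted matrix protein and is named after its values were seen, was at 0.69 in the probe set used, and its 3 other measured probe sets ran from 1.02 to 1.49. The early genes of this list thus had ratios in both directions, more of them above 0 than below.

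Genes that act with the 10 were described next. Of 19 other bZIP partners 14 were measured, with a median of 0.15 and none at 2-fold in the probe set used. In Crem, named after its values were seen, a second probe set gave 1.15, while the one used gave 0.17 and another -0.49. Jdp2, a repressor that binds Jun, was at 0.89 with a spread of 0.38 (381.3 in Mll2 shRNA cells and 206.0 in control cells), and became 1.01 with spike-in scaling. Atf4, the effector of the integrated stress response, was at 0.46 with 0.94 in its second probe set. Mafk, a small Maf protein, was at -0.63 (286.1 and 442.5) and Batf3, a bZIP factor of immune cells, at -0.34. Of the EGR corepressors, Nab1 was at -0.31, with 0.24 in its second probe set, and Nab2 at -0.19. Egr3, above the floor on 1 array only, was higher by a log2 ratio of at least 0.38, and Egr4 was below the floor on both.

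Genes upstream were listed as 2 routes. Of 23 genes of the ERK route with serum response factor and its partners, 16 were named by a probe set of their own and all 16 measured, with a median of 0.11 and none at 2-fold. Araf, a Raf kinase, was at 0.66, but its 4 other measured probe sets ran from -0.07 to 0.75. Srf itself was at 0.51 (1181 in Mll2 shRNA cells and 829.7 in control cells), with 0.02 in its second probe set. Spry4, a feedback inhibitor of the route, was at -0.42 and Elk1, a ternary complex factor at CArG boxes, at -0.28 with a spread of 0.43.

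Of 17 genes of the JNK and p38 stress kinase routes, 15 were measured, with a median of 0.08 and none at 2-fold. Map3k5 (ASK1), a stress-activated kinase, was at 0.64, with 0.44 in its second probe set, and Mapk13, a p38 kinase, at 0.39. Map3k1 (MEKK1), an activator of the JNK route, was at -0.61 and Mapkapk3, a kinase downstream of p38, at -0.48, with -0.70 in its second probe set. Ubiquitin ligase components were listed because several are known to degrade c-Jun: all 5 were measured, with a median of 0.09 and none at 1.5-fold. Among them Itch was at 0.11 with 0.46 in its second probe set, Dcaf8 at 0.25 with 0.06 in its second, and Det1 at -0.29 with -0.64 in its second.

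Genes reported elsewhere as targets of AP-1 or EGR1 had ratios in both directions. Of 28 listed, 20 were measured. Their median was -0.14, with 6 ratios above 0 and 14 below, and with spike-in scaling the median was -0.02 and 10 lay below 0. Beyond the spread at their level, 6 were lower and 4 higher, a count with no share of all measured genes to set beside it. Plat, tissue plasminogen activator, was 2.04-fold lower (118.9 in Mll2 shRNA cells and 242.5 in control cells, log2 ratio -1.03, spread 0.48), and became -0.91 with spike-in scaling. Lmna, which encodes lamin A and C, was at -0.51, with other probe sets from -0.81 to 0.17. The growth factor gene Vegfa was at 0.71 (260.7 and 159.6) and F3, tissue factor, at 0.53. None of the 20 was at least 2-fold higher. Some genes stand in more than 1 list, and the lists were chosen for known roles and, like the 10 genes, with earlier results of these arrays known.

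**Figure D4:**
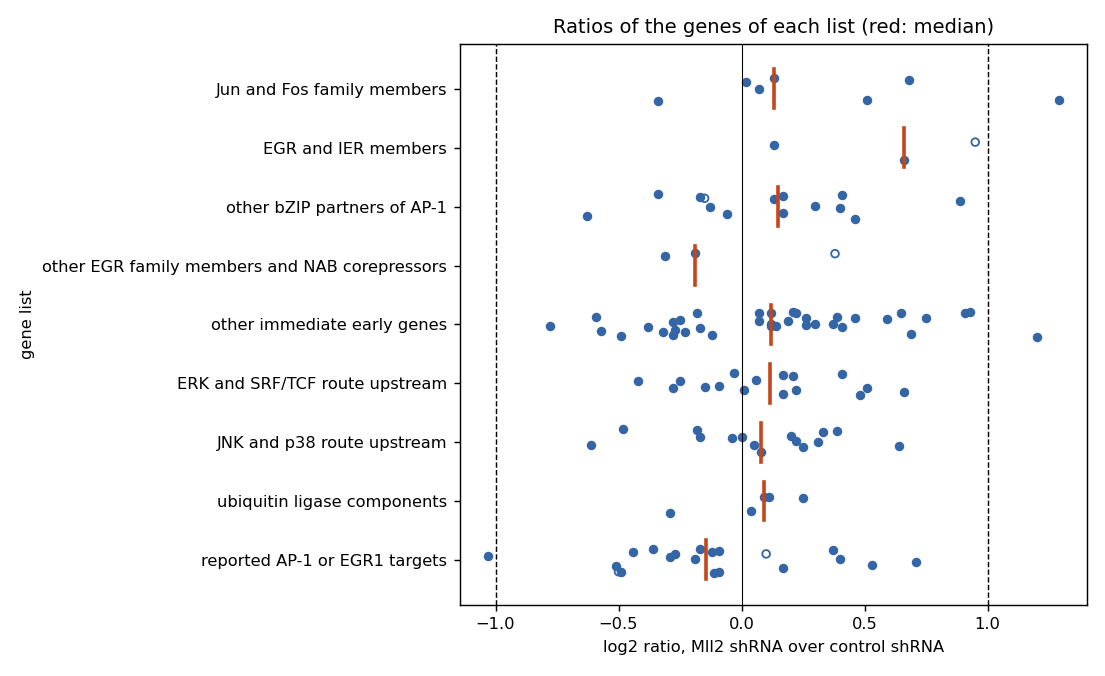
Log2 ratio (Mll2 shRNA over control shRNA) of each measured gene of 9 lists, 1 point per gene, with the median of each list in red and 2-fold as dashed lines. Open points are genes above the floor on 1 array only, whose ratio is a lower bound in size. As deposited, the median of the reported targets is -0.14 and those of the other lists of at least 5 genes lie between 0.08 and 0.15.

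The arrays themselves were alike in scale, with median log2 signals of 6.01 (Mll2 shRNA) and 6.02 (control). Both Kmt2d and Kmt2b have been called Mll2, and which of them was targeted is not stated in the labels. Kmt2d had signals of 334.6 in Mll2 shRNA cells and 735.7 in control cells, 2.20-fold lower, and Kmt2b had 852.2 and 901.5. As signs of RNA integrity, Gapdh gave a 3' minus 5' log2 difference of 0.06 and 0.05 and actin one of 0.77 and 0.96. All 16 embryonic stem cell markers were above the floor on both arrays, with summed signals of 112409 in Mll2 shRNA cells and 122930 in control cells. They had a median log2 ratio of -0.20, with 10 ratios below 0 and 6 above. Klf4 was at 0.59, Esrrb at 0.53 (other probe sets from -0.22 to 0.75), Lin28a at -0.90 and Fgf4 at -0.65 (others from -0.40 to 0.12). Of 18 fibroblast markers 13 were measured, with summed signals of 45460 and 30912, or 33491 and 25439 without Acta2. Most of each sum came from Vim (16380 in Mll2 shRNA cells and 12420 in control cells), Acta2 (11970 and 5473), Tagln (8059 and 5505) and Fn1 (7860 and 6151). No other measured fibroblast marker had a signal above 402.6, so the sums say little of the others. The median log2 ratio of the 13 was 0.34, beside the median of 0.32 of the 10 early genes. Of the 13, 8 ratios lay above 0, those of the bright markers among them. The 5 below 0 were Col5a1, Lox, Col1a1, S100a4 and Pdgfrb. Dcn, Lum, Pdgfra, Postn and Thy1 were below the floor on both arrays. Acta2 (2.19-fold) and Col5a2 (at least 2.35-fold, but 0.06 in another probe set) were higher and Col5a1 was 2.30-fold lower, Col1a2 was at 0.70 and Lox at -0.84. Of 13 primitive endoderm markers 9 were measured, with summed signals of 6999 and 6877, Foxa2 at 2.23, Lama1 at 0.33, Dab2 at -0.59 and Lamb1 at -0.22, while Gata4, Afp, Ttr and Pdgfra were below the floor on both. The part of these markers in the ratios of Jun, Fos and Egr1 was not tested.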

How the data were processed

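The samples, 1 per group, were grouped by their labelled treatment. The deposited values are log2 signals of 45101 probe sets. The authors made them with MAS5, per the submitters' processing notes, and its version is not given in the sources used here. MAS5 subtracts mismatch signal, which makes dim probe sets noisy. On the linear scale both arrays had the same 2% trimmed mean, 500.0. Control probe sets (64) were left out, symbols were updated by Entrez number to RefSeq (GRCm38.p6), and probe sets of several genes were left out. No probe set named 1 of the 10 genes together with another gene. The floor, the brightest probe set per gene and the 2-fold threshold are described in the results, and no test was made. All values of the 10 genes are given. From each list up to 2 genes with the largest ratio above 0 and up to 2 below 0, among those above the floor on both arrays, and all at 2-fold, are named. The 10 genes, the lists and the alternatives were chosen with earlier results of these data known, and the motifs after the values were seen. The steps were tested on simulated data, with changes larger than that of Jun in genes far above the floor. Its noise was below the spreads of the 10 genes, so it does not cover smaller ratios or dim genes. Python 3.11.15, numpy 2.4.6, pandas 2.3.3 and statsmodels 0.14.6 (lowess) were used. The number of arrays limits the precision.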

Additional observations from a re-analysis of the deposited data

How the results depend on the processing

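Of 97 ratios of the 10 genes recomputed under the alternatives, 95 moved by less than the spread at their level. Many of them could not move, since a changed floor leaves bright genes as they are. A changed choice of probe sets likewise leaves genes with 1 unsuffixed probe set as they are. The exceptions were Egr2 with the mean over probe sets (0.50) and without suffixed probe sets (0.04). Fosl1 changed sign after quantile normalization and loess, within its spread. Fosb, Fosl1 and Egr2 had no value with the floor at the 70th percentile, since they then lay below it. The count of the 10 genes at least 2-fold higher was 2 with spike-in scaling, with a 30th-percentile floor and with no floor, where Egr2 joined Jun. It was 4 at 1.5-fold and 0 at 3-fold. The count lower was 0 in each setting. Measured genes at least 2-fold higher and lower numbered 494 and 482 with a 30th-percentile floor, 50 and 38 with a 70th-percentile one, 1753 and 1744 with no floor, and 87 and 70 with a pseudocount equal to the floor. They numbered 873 and 553 at 1.5-fold and 27 and 18 at 3-fold. Of the genes at 2-fold, 59.9% were higher as deposited, 51.2% after quantile normalization, 52.1% after loess and 75.9% with spike-in scaling. The cause of these shifts was not tested. No paired analysis was possible because each group had 1 array.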
